A study of Mus musculus with 2 samples.

Results

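Delta cells are the somatostatin cells of the pancreatic islet. They were taken here as the barcodes with much Sst transcript and little Ppy, which gave 491 of the 10781 barcodes that passed quality limits in a single-cell RNA sequencing study of mouse islets. The members were chosen by the hormone content of the cell itself. A barcode needed at least 500 genes and at most 10% mitochondrial transcripts. Sst had to reach 1% of its UMIs (unique molecular identifiers, each standing for 1 captured transcript), with Ppy under 5%, Gcg under 5% and Ins1 plus Ins2 under 20%. The chow library gave 278 such cells, 4.35% of its 6387 barcodes (95% exact Clopper-Pearson interval 3.87 to 4.88%). The high fat library gave 213, 4.85% of 4394 (4.23 to 5.52%). These intervals cover counting error only, and they overlap.

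Islets came from wild-type C57BL/6J mice fed chow (4 mice) or a 60% high fat diet, HFD (5 mice), for 6 weeks from weaning. The labels give neither sex nor a further age. They name 1 library per diet and do not separate the animals within it. The islets were kept overnight in culture, broken up with trypsin and run in droplets by the 10x Genomics 3' v2 method. With 1 library a diet, a difference between libraries and a difference between diets cannot be told apart, and no test of diet was possible. Delta cells had a median of 7748 UMIs and 2264 genes in chow and 9201 UMIs and 2641 genes in HFD. The whole libraries held 89292222 UMIs over 6509 barcodes for chow and 68544729 over 4539 for HFD. Of the barcode sequences 45 occurred in both libraries, and 4 delta cells carried one of them.

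Somatostatin is a short peptide that restrains the release of insulin and glucagon from neighbouring cells through G protein-coupled receptors. Delta cells are electrically active, secrete when glucose is high, respond to urocortin 3 from beta cells and to circulating ghrelin, and extend processes to their neighbours. Their identity depends on the homeobox factor HHEX, while NKX6-1 and MAFA mark beta cells. Pancreatic polypeptide (Ppy) and peptide YY (Pyy) belong to the neuropeptide Y family, and Iapp encodes amylin, the peptide that beta cells secrete with insulin.

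The Sst gene (ENSMUSG00000004366) is a textbook target of cyclic AMP signalling, which acts through a cyclic AMP response element in its promoter. The 250 bases before its start site are shown because this gene defines the cells. They come from the RefSeq promoter table of build GRCm38.p6, chr16:23890845-23891094 on the minus strand. Capitals mark the match to TGACGTCA, which begins at position -48 from the start site.
Sst promoter: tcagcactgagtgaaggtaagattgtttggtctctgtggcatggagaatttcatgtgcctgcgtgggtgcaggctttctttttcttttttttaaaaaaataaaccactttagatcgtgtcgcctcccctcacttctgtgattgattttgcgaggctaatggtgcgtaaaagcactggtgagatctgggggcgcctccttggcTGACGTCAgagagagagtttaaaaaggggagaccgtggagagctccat
The motif reads the same on both strands, and 508 of 32851 promoter windows of that length in the table (1.55%) hold it. The windows of Rbp4, Hhex and Ghsr do not hold these letters. A match describes letters only, and these libraries do not measure binding.

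The limits on Sst and on Ppy met different distributions. Few cells lay near the Sst limit: 2 chow cells and 1 HFD cell had 0.5 to 1% Sst with the other limits met, and 1 and 3 cells had 1 to 1.5%. The member nearest that limit had 1.23% Sst in chow and 1.30% in HFD, and the nearest non-member had 0.971% and 0.542%. Ppy showed no gap at its limit. In chow 48 cells lay at 4 to 5% Ppy and 36 at 5 to 6%, and in HFD the counts were 32 and 37. The nearest members had 4.98% Ppy in each library, and the nearest non-members had 5.03% in chow and 5.05% in HFD. At the other end, 64 chow cells and 43 HFD cells had 0.1 to 0.5% Ppy. Hormone-low barcodes, which fell under every hormone limit and served to measure free RNA, had a median of 0.0923% Ppy in chow and 0.0642% in HFD. The members with the least Ppy had 0.0594% and 0.0235%, below those medians, and others filled the range up to the limit.

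**Figure D1:**
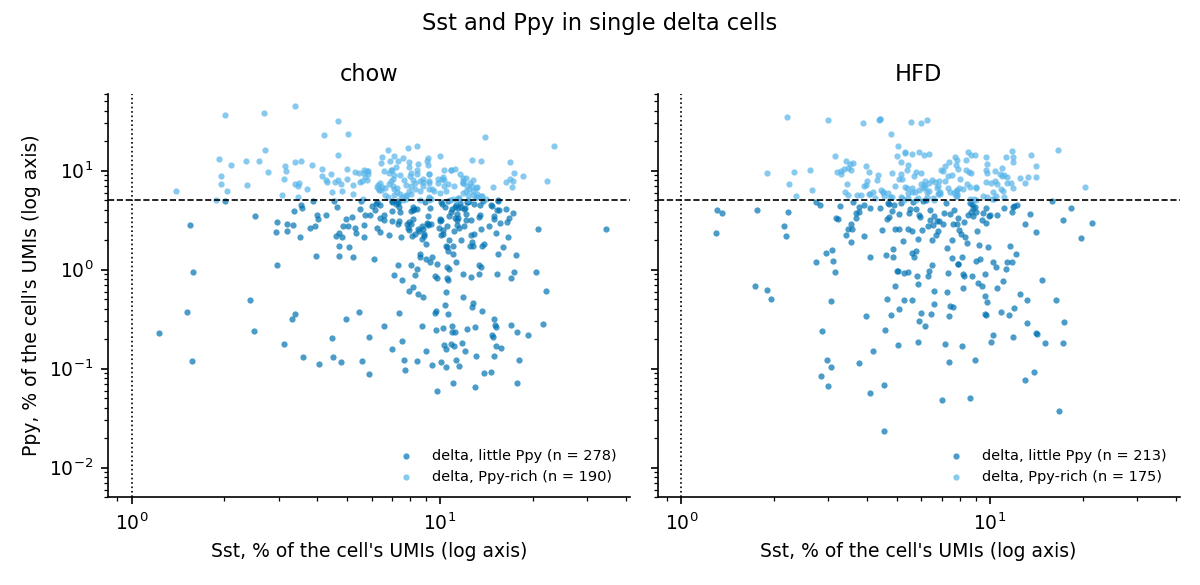
Sst against Ppy in each cell with at least 1% Sst, as percent of the cell's UMIs on log axes, for the chow and the HFD library; the dashed line is the 5% Ppy limit and the dotted line the 1% Sst limit. The points cross the dashed line without a gap, with 278 and 213 cells below it and 190 and 175 above.

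Sst, Ppy, Gcg and the insulin genes were used to choose the cells and are given as a description. Per cell, Sst ran from 1.23% through a median of 9.65% to 34.6% of UMIs in chow, and from 1.30% through 6.61% to 21.4% in HFD. Ppy had medians of 2.18% and 1.64%. Summed over the cells, Sst made up 9.63% of chow and 7.36% of HFD delta UMIs. Insulin transcripts in delta cells were close to the free RNA level: the median Ins2 share was 1.57% in chow and 1.29% in HFD, against 1.56% and 1.34% in hormone-low barcodes. The median Gcg share was 0.0800% and 0.0535%, against 0.0755% and 0.0578%.

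Pyy and Iapp were not used by the rule, and delta cells held much of both. The median delta cell had 8.78% Pyy in chow and 8.32% in HFD. The medians were 11.5% and 9.20% in PP cells, 1.96% and 1.78% in alpha cells, 0.0584% and 0.0413% in beta cells, and 0.0434% and 0.0331% in hormone-low barcodes. Delta cells were therefore below PP cells and above the other classes for Pyy in each library. The median delta cell had 6.02% Iapp in chow and 4.97% in HFD. Beta cells had 7.54% and 6.06%, alpha cells 0.527% and 0.261%, PP cells 0.402% and 0.222%, and hormone-low barcodes 0.424% and 0.232%. The Iapp share of delta cells was next to that of beta cells, although their median insulin share was near that of hormone-low barcodes. Across single delta cells Iapp ranged from 1.74% to 17.7% in chow and from 1.01% to 11.7% in HFD, and Pyy from 1.32% to 22.2% and from 1.93% to 19.9%, so every member held UMIs of both. A few cells raise the summed share of a class: hormone-low barcodes had 0.789% and 0.585% Pyy in sum, with single barcodes up to 49.4% and 32.8%.

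**Figure D2:**
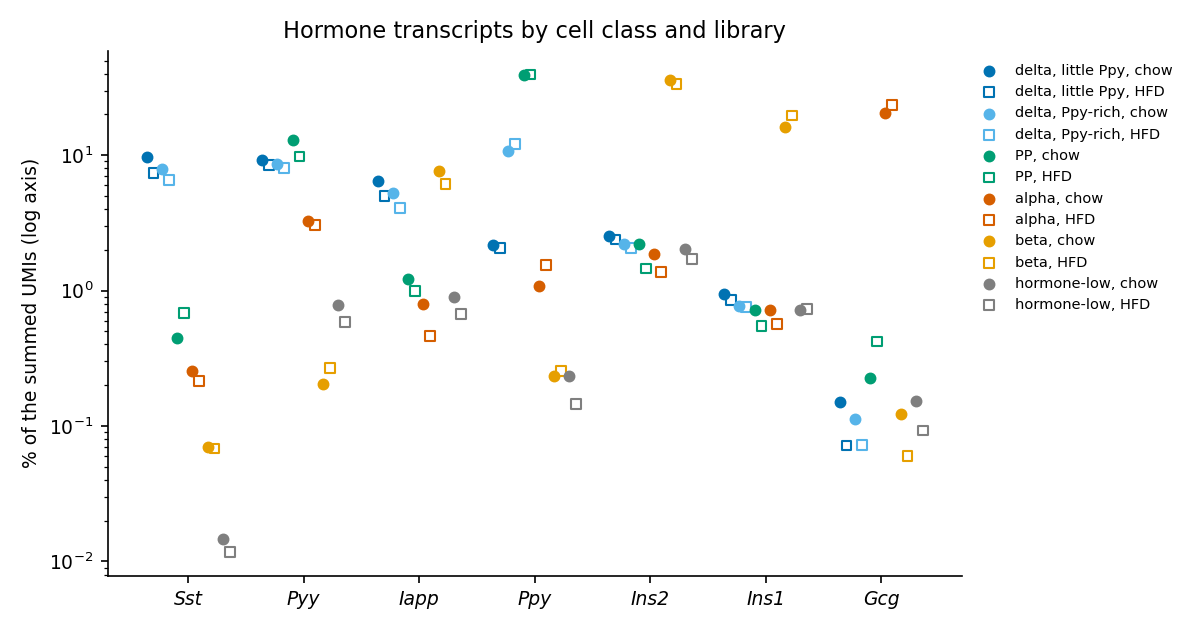
Share of 7 hormone transcripts in the summed UMIs of each cell class, on a log axis, with filled circles for chow and open squares for HFD. Delta cells lie with beta cells for Iapp (6.40% and 5.01%) and next to PP cells for Pyy (9.18% and 8.49%), while their Ins2 (2.54% and 2.38%) lies near the hormone-low barcodes (2.04% and 1.72%).

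The label was checked against other markers of delta cells. Levels are in hormone-free CPM, the UMIs of a gene per 1000000 UMIs that are not of the 7 hormone genes, summed over the cells of a class in a library. Rbp4 (ENSMUSG00000024990), which encodes a retinol carrier, was 9849 CPM in chow and 7381 in HFD delta cells, against 1273 and 1265 in alpha, 985 and 1075 in PP and 197 and 200 in beta cells. Hhex (ENSMUSG00000024986) was 329 and 350 CPM in delta cells and at most 29.2 in alpha, beta and PP cells. Ghsr (ENSMUSG00000051136), the ghrelin receptor, was 14.6 and 18.6 CPM in delta cells and at most 0.971 in those 3 classes. These 3 markers set delta cells apart in both libraries. The rules for alpha, beta and PP cells set no limit on Sst. Of the PP cells, 12 of 215 in chow and 16 of 176 in HFD held at least 1% Sst, so PP levels of delta genes include these cells. At a depth of 4000 UMIs per cell, with the 6 shallower chow cells left out, Hhex had a UMI in 53.7% of 272 chow and 62.4% of 213 HFD delta cells. The unthinned shares were 72.7% and 79.8%. The thinned shares were 0.882% and 0.649% in beta cells and 17.7% and 18.7% in hormone-low barcodes, which hold non-endocrine cells. Median depths before thinning were 7748 and 9201 UMIs in delta cells and 7346.5 and 8397 in hormone-low barcodes. Ghsr had a UMI in 4.04% and 4.69% of thinned delta cells (7.91% and 13.1% unthinned) and in 0 of 334 and 0 of 321 hormone-low barcodes, for which exact upper limits are 1.10% and 1.14%.

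The other markers split. Spock3, a proteoglycan gene, was 25.3 and 21.8 CPM in delta cells and at most 2.13 in alpha, beta and PP cells. Sstr1, a somatostatin receptor, was 12.7 and 7.70 CPM, with at most 2.25 elsewhere. Crhr2, the urocortin 3 receptor, had 6 and 9 UMIs in all delta cells together. Frzb, an inhibitor of Wnt signalling, was 162 and 157 CPM in delta cells and 164 and 206 in beta cells. Lepr, the leptin receptor, had no UMI in delta cells of either library. The data thus bear out the label through Rbp4, Hhex, Ghsr, Spock3 and Sstr1. Frzb separated these cells from alpha and PP cells but not from beta cells, and Lepr did not separate them.

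Among transcription factors, Neurog3, the factor that endocrine progenitors need, stood beside Hhex. It was 96.8 CPM in chow and 87.9 in HFD delta cells, 6.65 and 11.7 in alpha, 2.32 and 7.59 in beta and 1.42 and 13.5 in PP cells. At 4000 UMIs it had a UMI in 21.3% and 21.1% of delta cells (34.2% and 38.5% unthinned), against 0.599% and 0.935% of hormone-low barcodes. Pdx1 was 101 and 110 CPM in delta cells, near the 132 and 140 of beta cells and above the 11.2 and 4.86 of alpha cells. Isl1, a factor of all islet endocrine cells, was 462 and 479 CPM in delta cells and 393 and 396 in PP cells. Nkx6-1 was 24.0 and 26.3 CPM in delta cells and 314 and 321 in beta cells. Of the 29 factors listed, 18 reached 50 UMIs in delta cells. Of 17 tested, 2 (Hhex and Neurog3) were at least 2-fold above the other 3 classes in both libraries, beside 1.62% of all genes tested. The list was chosen with earlier results of these data known.

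Across the transcriptome, 93 of 5743 genes with enough counts (1.62%) were at least 2-fold higher in delta cells than in alpha, beta and PP cells in both libraries, and 23 of 4614 (0.498%) were at least 2-fold lower. Ratios were taken relative to the median gene of each comparison. With Sst held under 1% in alpha, beta and PP cells, these counts stayed within 1.5 times. The weakest of the 6 ratios of a gene then moved for 14 of the leading genes and stayed for 16, without a change of sign. The classes were chosen by hormone content, so these counts describe them and carry no test. With 2 libraries against 2, an exact two-sided permutation test could not go below 0.333. Scaled to all UMIs with no median subtracted, hormone load entered the ratios: the median gene then lay 0.76 (log2) above beta cells in each library and 0.74 and 0.72 above PP cells, and the counts became 271 higher and 11 lower.

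The leading genes of the higher set included some of axons, synapses and cell contacts, whose share was not counted. Gap43, a growth cone protein, was 248 CPM in chow and 230 in HFD delta cells and at most 13.5 in the other 3 classes. Ptprz1, a receptor phosphatase of glia and neurons, was 80.3 and 103 CPM in delta cells and at most 6.47 elsewhere. Cd24a, a surface glycoprotein of many progenitor cells, was 1097 and 925 CPM against at most 104. These genes were chosen by their ratios to the other classes, so their separation from those classes follows from the choice. Syt1, the calcium sensor of synaptic vesicles, was 48.7 and 48.8 CPM in delta cells and at most 6.75 elsewhere. Nptx2, a neuronal pentraxin, was 40.5 and 27.6 CPM with at most 4.71 elsewhere. Ly6h, Gpm6a and Nsg1, which are neuronal membrane proteins, were 310 and 265, 60.7 and 71.2, and 29.7 and 30.2 CPM in delta cells. Of the 26 genes listed for adhesion and neurites, 3 of the 15 tested were called higher (Gap43, Nptx2 and Efna5), beside 1.62% of all genes. The list was chosen with earlier results of these data known, so this share is a description and no sign of enrichment.

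Genes of ion channels and signalling were also in the leading 20. Cacna1h, a T-type calcium channel, was 27.8 and 23.1 CPM in delta cells and at most 3.56 elsewhere. Cacna2d2, an accessory calcium channel subunit, was 29.7 and 23.7 CPM against at most 3.56, and Dpp6, a partner of Kv4 potassium channels, was 61.4 and 68.0 CPM against at most 6.75. Cacna1h was the 1 called of 15 tested excitability genes, beside 1.62% of all genes. Abcc8, the sulfonylurea receptor of the KATP channel, did not set the cells apart, at 355 and 334 CPM in delta and 302 and 335 in beta cells. Ppp1r17, an inhibitor of protein phosphatase 2A, was 78.5 and 62.9 CPM in delta cells and at most 3.24 elsewhere. Mef2c, a transcription factor of muscle and neurons, was 89.2 and 103 CPM against at most 9.0 in the 3 endocrine classes, but it was 208 and 200 in hormone-low barcodes. The metabolic enzyme Ass1 of arginine synthesis was 43.7 and 42.4 CPM in delta cells and at most 4.46 elsewhere. Cfap61 and Fermt1 were also in this group, at 48.1 and 39.8 and at 41.8 and 47.5 CPM in delta cells.

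**Figure D3:**
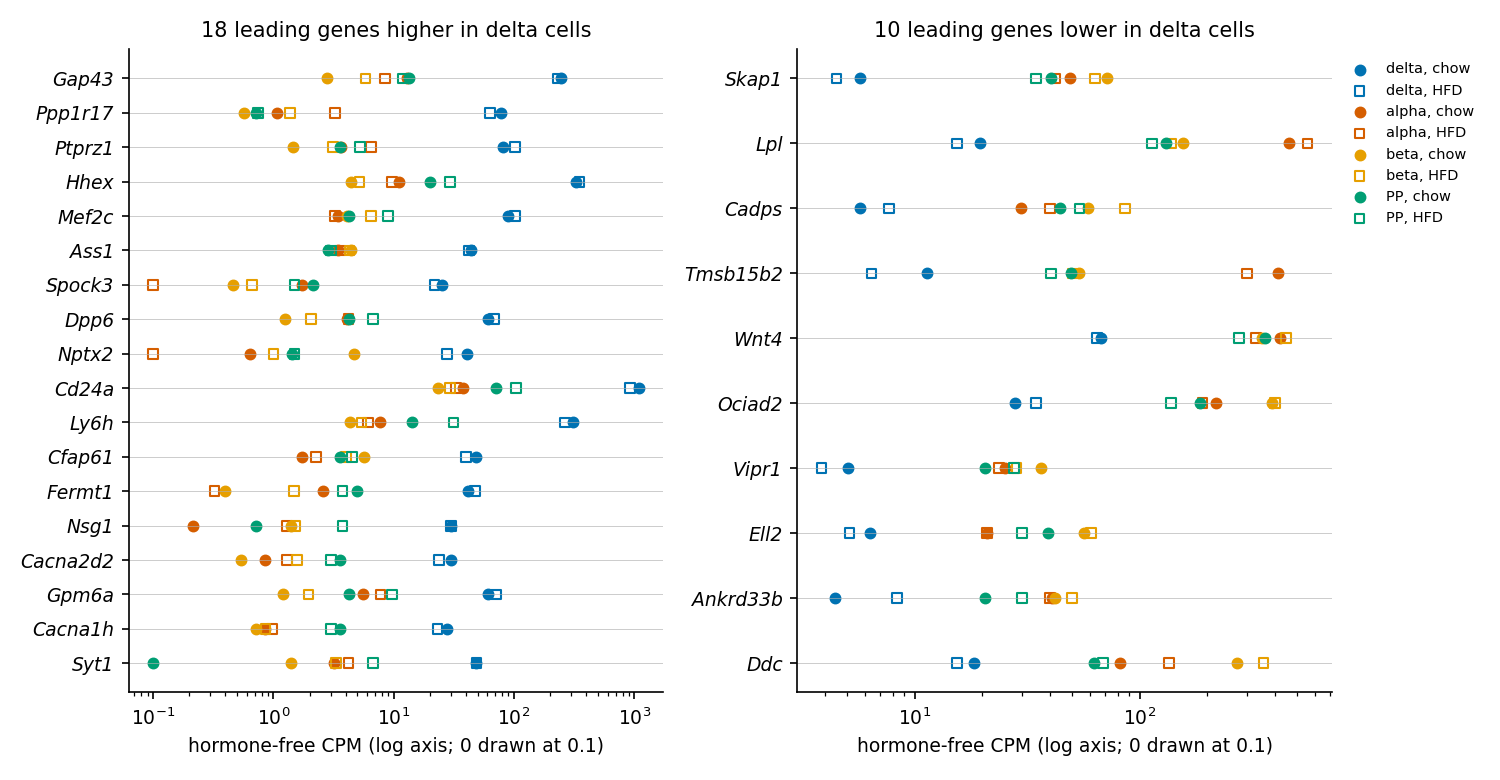
Hormone-free CPM on a log axis of 18 leading genes above and 10 below alpha, beta and PP cells, ordered by the weakest of the 6 ratios, with filled circles for chow and open squares for HFD. The genes were chosen by these ratios, so delta cells stand apart from the 6 other sums by selection. Gap43 lies at 248 and 230 CPM against at most 13.5, and Lpl at 19.6 and 15.4 CPM against at least 113.

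The genes lower in delta cells included Lpl, lipoprotein lipase, at 19.6 and 15.4 CPM in delta cells against 464 and 558 in alpha, 156 and 138 in beta and 131 and 113 in PP cells. Ddc, the enzyme that makes dopamine and serotonin, was 18.3 and 15.4 CPM in delta cells and at least 62.6 in the other 3 classes. Wnt4, a secreted signal, was 67.1 and 64.8 CPM against at least 276, and Ociad2 was 27.8 and 34.7 CPM against at least 138. Skap1, an adaptor known from T cells, had 5.69 and 4.49 CPM in delta cells and at least 34.5 elsewhere. Cadps, which primes dense-core granules for release, was 5.69 and 7.70 CPM in delta cells and at least 29.8 elsewhere. Tmsb15b2 has close paralogs whose reads could be split in counting, so its 11.4 and 6.42 CPM are uncertain. Vipr1, a receptor for vasoactive intestinal peptide, was 5.06 and 3.85 CPM and at least 20.6 elsewhere. Ell2 and Ankrd33b were the remaining genes of the 10.

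Receptors were sparse: of 38 listed, 12 reached 50 UMIs in delta cells. Ffar4, a receptor for long-chain fatty acids, was 139 and 110 CPM in delta cells, 77.5 and 52.5 in PP, 38.2 and 37.2 in alpha and 5.92 and 6.01 in beta cells. Ffar1, the fatty acid receptor of beta cells, was 7.59 and 8.34 CPM against 155 and 197 in beta cells. It was the 1 receptor called lower of 6 tested, beside 0.498% of all genes. The 2 fatty acid receptors therefore had opposite orders in delta and beta cells. Ghr, the growth hormone receptor, was 226 and 199 CPM, between alpha cells at 76.4 and 71.2 and beta cells at 275 and 320. Among somatostatin receptors, Sstr3 was 52.5 and 50.1 CPM in delta cells and 103 and 124 in beta cells, while Sstr2 had 2 UMIs in chow and 0 in HFD delta cells against 31.1 and 25.2 CPM in alpha cells. Glp1r had 3 and 1 UMIs in delta cells, at most 3.39 CPM in beta cells, and was not measurable at this depth.

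Genes of prohormone processing and granules differed between classes gene by gene. Of 14 tested 0 were called higher, beside 1.62% of all genes, and of 13 tested 0 were called lower, beside 0.498%, so the counts do not set the list apart from other genes. Chgb, a granin, was 3511 and 3059 CPM in delta cells against 1127 and 1138 in beta and 469 and 592 in alpha cells. Scg2 was 3579 and 3248 CPM in delta and 625 and 773 in alpha cells. Pcsk1, the convertase of proinsulin, was 29.7 and 20.5 CPM in delta and 136 and 91.8 in beta cells, and Pcsk2 was 3008 and 3311 in delta and 3914 and 5243 in beta cells. In the list of exocytosis genes Syt5, a synaptotagmin, was called higher (158 and 117 CPM, at most 52.0 elsewhere) and Cadps lower, of 17 tested in each direction. The shares over all genes were 1.62% and 0.498%. Slc2a2, the glucose transporter of beta cells, was 11.4 and 14.8 CPM in delta and 198 and 231 in beta cells, and 0 of 13 tested glucose handling genes were called higher.

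Between the libraries, 56 of 6565 genes with enough counts in delta cells (0.853%) were at least 2-fold higher in HFD and 31 (0.472%) at least 2-fold lower, relative to the median gene. The split moved with scaling: trimmed-mean factors gave 40 higher and 42 lower, and CPM over all UMIs gave 82 and 19. Over the 7002 genes with at least 50 UMIs, the quartiles of the log2 ratio of HFD over chow were -0.19 and 0.23. Delta cells in HFD were deeper, and thinning every cell to 4000 UMIs gave 39 higher and 19 lower. The minimum of 50 UMIs was applied to the thinned sums, so these counts are not out of the same 6565 genes. No count here has a replicate behind it, and the intervals below cover counting error.

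Immediate early genes, which cells switch on within minutes of a stimulus, were the list furthest above the median gene in HFD delta cells. Of 14 measured, 13 lay above and 1 below, with a median log2 ratio of 0.69. Of 14 tested, 3 were called higher, beside 0.853% of all genes. In beta cells the median of this list was -0.21 and in alpha cells 0.28. Egr1, a zinc finger factor, was 356 CPM (327 to 387) in chow and 795 (752 to 841) in HFD delta cells, a log2 ratio of 1.16 (1.02 to 1.31), beside 0.57 in beta, 1.24 in alpha and 1.25 in PP cells. Nr4a1, a nuclear receptor, was 69.6 and 163 CPM, a ratio of 1.23 (0.90 to 1.57), and Atf3, a stress factor, was 56.9 and 142 CPM, 1.31 (0.96 to 1.69). Fos was 1255 and 1961 CPM and Jun 671 and 1115 CPM, with ratios of 0.65 and 0.73. Dusp1, a phosphatase of MAP kinases, was the exception at 123 and 107 CPM.

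Beyond these genes, Irs2, which carries the insulin receptor's signal, was 22.8 CPM (16 to 31.5) in chow and 72.5 (59.8 to 87.2) in HFD delta cells. It had a UMI in 31 of 278 and 78 of 213 cells, and its log2 ratio was 1.66 (1.12 to 2.26), beside 0.78 in alpha, 0.44 in beta and 1.26 in PP cells. Cdkn1b, which encodes the cell cycle inhibitor p27, was 27.8 and 75.7 CPM, with UMIs in 38 and 79 cells and a ratio of 1.44 (0.94 to 1.98). Irs2 and Cdkn1b were above the median gene in all 4 endocrine classes, and each stayed at 2-fold or more in delta cells under the 9 alternatives tried. Errfi1, a feedback inhibitor of EGF receptor signalling, was 129 and 270 CPM, a ratio of 1.06 (0.82 to 1.31). Stxbp5l, a tomosyn that regulates exocytosis, was 100 and 213 CPM, a ratio of 1.09 (0.82 to 1.38). It was itself among the genes higher in delta cells, with at most 85.5 CPM in alpha, beta and PP cells. Rasd1, a small G protein, was 21.5 and 62.9 CPM, with 44.1% and 45.9% of its UMIs in the 5 highest cells. Its ratio was 1.54 (0.97 to 2.16) in delta cells and -0.14 in beta cells.

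Some of the highest ratios rested on few cells. Igfbp3, a binding protein of insulin-like growth factors, had a log2 ratio of 4.42, but its UMIs lay in 5 chow and 2 HFD cells. Gng11, a G protein subunit, had a ratio of 1.52 with UMIs in 8 and 6 cells. Without delta cells with 3 or more UMIs of 6 endothelial markers (2 chow cells and 1 HFD cell), the ratios were -1.56 for Igfbp3 and -0.63 for Gng11. The endothelial marker Esm1 (11.4 and 38.5 CPM) and the endothelial genes Emcn (10.8 and 31.5 CPM) and Gpihbp1 (12 and 37.2 CPM) were called higher too. The endothelial marker list, with counts for 6 of 6 markers in each library, summed to 62.6 CPM in chow and 114 in HFD delta cells and to 5402 and 4447 in hormone-low barcodes. Mt2, a metallothionein, was 507 and 1046 CPM, and 5 cells held 46.5% of its HFD counts; without the 5 highest cells of each library its ratio was 0.41 instead of 1.05. S100a6, a calcium-binding protein, had a ratio of 1.25, which became 0.86 without those cells and -0.32 among cells with at least 5% Sst. The interferon-induced Ifitm3 (ratio 2.29) had 94.5% of its HFD UMIs in 5 cells, and its ratio was 0.55 without the 5 highest cells.

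**Figure D4:**
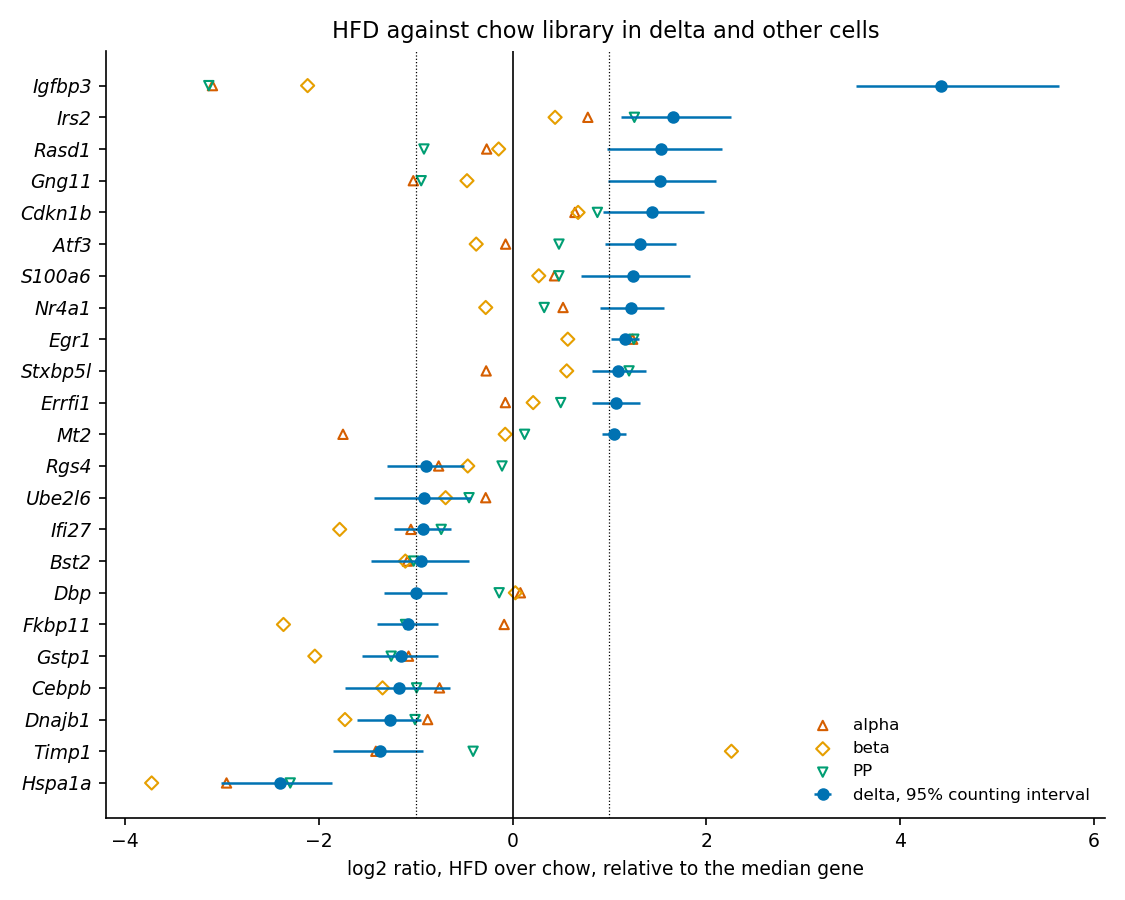
Log2 ratio of HFD over chow relative to the median gene for 12 named genes higher and 11 lower in HFD delta cells, with 95% counting intervals, and the same ratio in alpha, beta and PP cells. Dotted lines mark 2-fold; Igfbp3, at 4.42, lies in 5 chow and 2 HFD cells, whereas Irs2, at 1.66, lies in 31 and 78.

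Heat shock genes lay mostly below the median gene in HFD delta cells: 8 of 11 measured, with a median of -0.28. Of 11 tested, 2 were called lower, beside 0.472% of all genes. Hspa1a, the inducible HSP70, was 110 CPM (94.3 to 128) in chow and 20.5 (14.0 to 29.0) in HFD, with UMIs in 45 and 14 cells and a ratio of -2.40 (-3.01 to -1.87). Alpha, beta and PP cells had -2.95, -3.73 and -2.30. Among cells with under 1% Ppy, under 1% Gcg and under 5% insulin, however, the Hspa1a ratio was 0.29. Dnajb1, an HSP40 co-chaperone, was 170 and 70.0 CPM, a ratio of -1.27 (-1.61 to -0.95). Over 9 alternatives the Dnajb1 ratio ranged from -1.44 to -0.33, and 7 kept it at 2-fold or more. The constitutive chaperones differed less, with Hspa8 at 1283 and 954 CPM and Hsp90ab1 at 1539 and 1432 CPM.

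Of 29 genes of protein folding and stress in the endoplasmic reticulum, 24 lay below and 5 above the median gene, with a median of -0.26. Of 29 tested, 1 (Fkbp11) was called lower, beside 0.472% of all genes. Beta cells had a median of -0.55 and alpha cells 0.13. Fkbp11, a prolyl isomerase of secretory cells, was 168 and 79.6 CPM in delta cells, a ratio of -1.07 (-1.40 to -0.77). Its ratio was -2.37 in beta and -0.09 in alpha cells. Manf was 922 and 585 CPM and Pdia6 479 and 302 CPM, ratios of -0.65 and -0.66. Hyou1, another chaperone of that compartment, was the highest of the list at 22.1 and 39.2 CPM (0.82). No test of the difference between cell classes was possible with 1 library a diet.

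Other genes lower in HFD delta cells were Timp1, Cebpb and Gstp1. Timp1, an inhibitor of matrix metalloproteinases, was 93.6 and 35.9 CPM in delta cells (-1.37). Among alpha, beta and PP cells it was at most 17.1 CPM. Over 9 alternatives its ratio in delta cells ranged from -1.66 to -0.33, and 7 kept it at 2-fold or more. Cebpb, a stress-responsive factor, was 62.6 and 27.6 CPM (-1.17), and Gstp1, a glutathione transferase with a close paralog, was 113 and 50.7 CPM (-1.15). Dbp, a clock-controlled factor, was 153 and 76.4 CPM in delta cells with a ratio of -1.0 (-1.33 to -0.68), just inside 2-fold, beside 0.08 in alpha, 0.03 in beta and -0.14 in PP cells. Ube2l6, a ubiquitin-conjugating enzyme, had a ratio of -0.91. Rgs4, which turns off G protein signals, was 98.1 and 52.6 CPM (-0.89).

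Of the minor peptides, 6 of 16 were measured and 6 lay below the median gene in HFD, with a median of -0.61. The median of this list was -0.87 in beta and -0.61 in alpha cells. Of 6 tested in delta cells, 2 were called lower, beside 0.472% of all genes. Gal had a ratio of -2.24, with UMIs in 6 chow and 3 HFD cells, and Pdyn, the dynorphin precursor, was 29.1 and 14.1 CPM (-1.02), with UMIs in 26 and 13 cells. Rbp4 had -0.41 in delta cells and 0.13 in PP cells. On the same scale Iapp had -0.45 and Pyy -0.21, within 2-fold. Sst, which chose the cells, had -0.48, given as a description. Hhex was level at 0.09 (-0.08 to 0.27).

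Of 17 measured genes for interferon response and MHC class I, 8 lay above and 9 below the median gene, with a median of -0.02. Of 16 tested, 2 were called higher (Ifitm3 and Rsad2) and 0 lower, beside 0.853% and 0.472% of all genes. Bst2, at -0.94, and Ifi27, at -0.92, were the lowest of the list. Tetraspanin and lysosome genes had 18 of 24 below and a median of -0.21, with 0 called. The 5 measured cell cycle genes lay above, with a median of 0.32. Of 5 tested, 1 (Cdkn1b) was called higher, beside 0.853% of all genes. Nuclear genes of oxidative phosphorylation had 55 of 75 below the median gene and a median of -0.11, beside -0.66 in beta cells, with 0 of 74 tested called in either direction. Ribosomal protein genes had a median of 0.01 over 83 genes, and those for transcription factors 0.14, with 15 of 18 above. Mitochondrially encoded genes had a median of 0.10 and excitability genes 0.15. Receptor genes had a median of 0.04. Of 10 receptors tested, 2 were called higher and 0 lower, beside 0.853% and 0.472% of all genes. Ednrb was the highest of that list at 1.63, and its ratio was -0.066 among cells with at least 5% Sst. Cd63, a tetraspanin of granules and lysosomes, was 3311 and 2373 CPM in delta cells, a ratio of -0.48 beside -1.70 in beta, -0.84 in alpha and -0.99 in PP cells. Txnip, the thioredoxin-interacting protein, was 74.7 and 122 CPM, a ratio of 0.71 beside 0.88 in beta cells. Lcn2, lipocalin 2, had 2 UMIs in each delta library, and was 89.3 and 3.48 CPM in beta cells.

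**Figure D5:**
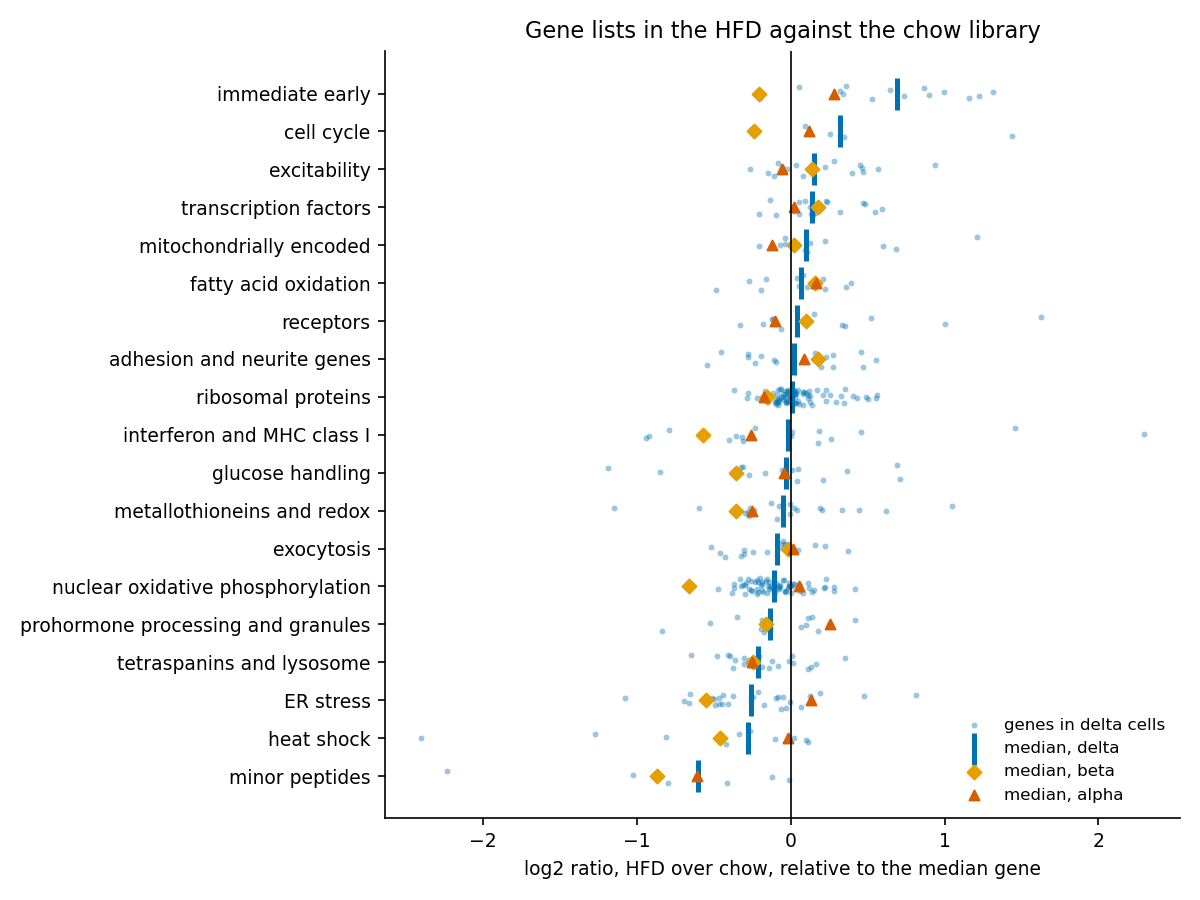
Log2 ratio of HFD over chow relative to the median gene for the members of 19 gene lists in delta cells (points), with the list median in delta (bar), beta (diamond) and alpha (triangle) cells. Immediate early genes have the highest delta median, 0.69, and minor peptides the lowest, -0.61.

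Within the class, delta cells of each library were split at the median Sst share. Of 3346 genes, 1 was at least 2-fold higher above the median in both libraries and 4 were lower, 0.0299% and 0.12% of those compared. Mfge8, a secreted glycoprotein, was 92.1 CPM above and 42.1 below the median in chow, and 66.8 and 32.8 in HFD. It was the 1 gene called higher. Cela1, a pancreatic elastase, was 447 and 265 CPM in chow and 352 and 142 in HFD, and was not called. The split uses Sst, which also chose the cells, so these values are a description. Id3, an inhibitor of differentiation factors, was 29.4 CPM above and 180 below the median in chow, and 84.5 and 279 in HFD. Wnt4 was 38.7 and 92.6 CPM in chow and 35.4 and 91.0 in HFD. Gng11 and Igfbp3 were the other lower genes, and they lay in few cells. The cells below the median Sst share had medians of 7412 UMIs in chow and 9091 in HFD, against 8216 and 9426 above it.

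Variation between cells beyond counting was measured as the variance over the mean at 4000 UMIs, over 5737 genes whose median was 1.01 in each library. Ranked by the lower of both libraries, the leading genes were Malat1, a nuclear RNA, at 27.5 in chow and 44.2 in HFD, Rbp4 at 11.3 and 8.56, Resp18, a granule protein, at 7.60 and 6.34, and Chga at 5.51 and 14.1. Dlk1, an imprinted membrane protein of the Notch family, had 5.06 and 5.74 although 14.7% of chow and 23.9% of HFD cells held a UMI. Cela1 had 4.23 and 4.06, with a UMI in 34.9% and 25.8% of cells, and Gadd45g, a growth arrest gene, had 3.94 and 5.39. Dlk1 and Cela1 were thus unevenly spread among delta cells, and both were called higher in delta cells than in the other 3 classes.

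Delta cells rich in Ppy, with 5% Ppy or more and the other limits met, differed little from those with less. They numbered 190 in chow and 175 in HFD, and 12 and 16 of them reached the 15% limit of PP cells. Of 3551 genes, 0 were at least 2-fold higher in them in both libraries and 1, Igfbp3, was lower (0.0282%, in few cells). Rbp4 was 8579 and 7168 CPM in Ppy-rich cells, beside 9849 and 7381, and Hhex 314 and 256 beside 329 and 350. Cela1 was 547 and 472 CPM in Ppy-rich cells beside 351 and 241, with log2 ratios of 0.64 and 0.97. Ptprz1 was 48.4 and 71.4 CPM beside 80.3 and 103. Iapp was 5.24% and 4.08% of UMIs and Pyy 8.62% and 8.08%, next to the 6.40% and 5.01% and the 9.18% and 8.49% of cells with little Ppy.

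Most lists of markers for other cell types summed to less in delta cells than in hormone-low barcodes. The acinar list summed to 384 and 250 CPM, of which Cela1 gave 351 and 241. The ductal list summed to 686 and 565 CPM, against 1949 and 2978 in hormone-low barcodes. Krt7, a keratin, gave 533 and 433 CPM of the delta sum and 82.9 and 73.1 in hormone-low barcodes. Spp1 gave 132 and 121 CPM, Sox9 20.2 and 11.6, Krt19 0.633 and 0, and Cftr 0. Krt7 in both libraries and Sox9 in chow were thus higher in delta cells than in hormone-low barcodes. The macrophage list summed to 156 and 130 CPM against 2830 and 4923 in hormone-low barcodes, with Adgre1 at 0. The mesenchymal list summed to 5.69 and 1.93 CPM. The list for T and B cells was above hormone-low barcodes, at 2.53 and 13.5 CPM against 1.09 and 2.95, from 1 of its 4 markers, with Cd3e, Cd3d and Ms4a1 at 0. The Schwann cell list was also above them, at 32.3 and 36.6 CPM against 21.7 and 29.8, with counts for 3 and 4 of its 4 markers. Beta markers other than hormones summed to 110 and 77.0 CPM, against 80.0 and 73.1. Ghrl, the epsilon cell hormone, was 3.16 and 0 CPM in delta cells and 2118 and 700 in hormone-low barcodes. Alpha markers without Gcg summed to 1058 and 637 CPM, of which Ttr gave 823 and 409. Hormone-low barcodes had 1067 and 604 CPM of Ttr and alpha cells 39235 and 38341.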

How the data were processed

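Raw UMI counts per gene and barcode were deposited for 2 libraries; the submitters' processing notes name Cell Ranger 2.1.0. Build, annotation and the rule for calling barcodes were not stated in the material at hand. The tables held 27998 genes. Barcodes with at least 500 genes and at most 10% mt- UMIs were classed by hormone share: alpha Gcg at least 5%, beta Ins1 plus Ins2 at least 20%, PP Ppy at least 15%, and 68 barcodes that met 2 of these rules were left out. Summed counts were scaled to 1000000 UMIs outside 7 hormone genes and compared as log2 ratios with 0.5 counts added, less the median ratio of genes with a sum of at least 50. A gene was called at 2-fold, with at least 20 CPM in delta cells of both libraries (higher), in the 3 other classes (lower) or in 1 library (diet). Intervals are exact Poisson or Clopper-Pearson at 95%, and cover counting error only. Named genes were the 20 highest and 10 lowest by the weakest of 6 ratios, the 12 highest and 12 lowest by diet ratio (at least 100 UMIs and 50 CPM), members of 19 lists and 8 genes by variance over mean; others were named after their values were seen. The members and lists were chosen with earlier results of these data known. The labels' protocols put doublets below 5%; Scrublet in scanpy 1.11.5 marked 3 and 1 barcodes and so did not separate them. Trimmed-mean factors came from edgeR 4.0.16. The ratios were tested on simulated data. A few genes that the rule names are not reported here or drawn.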

Additional observations from a re-analysis of the deposited data

How the results depend on the processing

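Delta cells with at least 5% Sst made up 3.66% of chow and 3.44% of HFD barcodes, with Sst at 10.9% and 9.09% of UMIs, and gave 29 genes higher in HFD. With Ppy and Gcg under 1% and insulin under 5%, the shares were 1.41% and 1.78% with Sst at 11.0% and 8.15%, and 17 genes were lower in HFD. Without barcodes above the 95th percentile of doublet scores, Sst was 10.1% and 7.55%. CPM over all UMIs gave 271 genes higher and 11 lower than in the other classes, and 19 lower in HFD. Thinning to 4000 UMIs gave 19 lower in HFD, no minimum CPM gave 36 lower than the other classes, and a fold of 1.5 gave 363 higher and 214 lower in HFD. Other alternatives kept these counts within 1.5 times. Settings with fewer cells or UMIs left fewer genes at the minimum of 50 UMIs. Their counts are therefore not shares of the same set of genes. At 5% Sst the ratios turned to -3.95 (Igfbp3), -2.83 (Gng11), -0.32 (S100a6) and -0.066 (Ednrb, from 1.63). Under the stricter hormone limits Hspa1a turned to 0.29. Without high doublet scores Igfbp3 turned to -2.66 and Gng11 to -1.68. Of 2 alternatives chosen after seeing the data, 1 left out the 5 highest cells of each gene, and Gng11 turned to -1.16. The other left out cells with 3 or more endothelial UMIs, and Igfbp3 turned to -1.56 and Gng11 to -0.63. Beyond the cells left out, the cause was not tested. The immediate early median ranged from 0.58 to 0.78 and that of heat shock from -0.45 to -0.18 over 9 alternatives. Of 38 receptors, 12 reached 50 UMIs, and of 17 cell cycle genes 5. No paired analysis was possible because each diet has 1 library.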

Other observations

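The following single genes were picked because their HFD over chow ratio in delta cells was high. No list was fixed for them, other genes of their kind were not counted, and they stand for no group. Npas4, an activity-dependent factor of neurons, had 16 UMIs in chow and 68 in HFD delta cells, in 12 and 36 cells, a log2 ratio of 2.08 (1.31 to 3.0) beside 0.36 in beta and 1.40 in alpha cells. Egr4 was 14.6 and 37.9 CPM, with a ratio of 1.36 in delta and -1.39 in beta cells. Csrnp1 was 10.1 and 28.9 CPM, a ratio of 1.49. Msmo1, an enzyme of sterol synthesis, was 78.5 and 158 CPM in delta cells, a ratio of 1.01 (0.69 to 1.33), Idi1, of the same pathway, was 15.2 and 41.1 CPM (1.42), and Stard4, a carrier of cholesterol, was 12.7 and 29.5 CPM (interval of the ratio 0.44 to 2.06). Msmo1 had -0.03 in beta and 1.04 in alpha cells.

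Other genes called higher in delta cells, likewise chosen after their values were seen, were Arg1, Mest and Ramp1. Arg1, the arginase of liver and macrophages, was 505 and 455 CPM in delta cells and at most 112 in alpha, beta and PP cells, with 6.88 and 4.59 in hormone-low barcodes, where macrophage markers were high. Mest, an imprinted gene, was 95.5 and 65.5 CPM in delta cells and at most 16.5 in those 3 classes. Ramp1, a partner of the calcitonin receptor family, was 84.8 and 89.2 CPM against at most 39.0.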
